A study of Mus musculus with 11 samples.

Results

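The genes described here are 10 genes of dendritic cell (DC) maturation and T cell costimulation: Cd83, Cd86, Cd80, Cd40, Ccr7, Traf1, Cd274, Il12b, Il15 and Fscn1. They were taken by symbol from 19933 genes that could be named on a single-colour Affymetrix mouse array, and all 10 had a probe set with 1 gene symbol. The rule used no measured difference, but the 10 genes were chosen with earlier results of these data known. For Cd80, the only gene of the 10 with more than 1 such probe set, the brighter of its 2 probe sets (by mean log2 intensity) stands for the gene.

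The mice were C57Bl/6, studied at steady state, and differed at Zbtb46, which encodes a zinc finger transcription factor of classical DC and their precursors. KO mice carry 2 gfp alleles (Zbtb46gfp/gfp), Het mice 1 (Zbtb46 gfp/+) and WT mice none (Zbtb46+/+). CD4+ DC were sorted from the spleens of KO and WT mice by CD11c and MHC class II, then by CD4, CD11b and CD172, with B220 and CD8 absent. The progenitors were Pre MegE cells, followed in erythroid development by Pre CFU-E and then CFU-E cells, sorted from the bone marrow of KO, Het and WT mice as lineage-negative CD117+ cells without CD41 or CD16/32, separated by CD150 and CD105. Each genotype and cell type has 1 array, which gives 2 DC arrays and 9 progenitor arrays. How many mice stand behind an array, and whether arrays share mice, is not stated, so p-values measure only the spread between these arrays.

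Resting DC take up antigen, and on maturation they move to the T cell zones of lymphoid organs and raise the ligands that T cells need in addition to antigen. Cd80 and Cd86 encode the ligands of CD28 and CTLA-4, Cd274 encodes PD-L1, the inhibitory ligand of PD-1, and Cd40 encodes a TNF receptor family member that T cells engage through CD40 ligand. Ccr7 encodes the chemokine receptor that guides DC along CCL19 and CCL21, and Fscn1 encodes fascin, which bundles actin in the dendrites of mature DC. Cd83 encodes a surface protein that stabilises MHC class II and CD86, Traf1 an adaptor of TNF receptors and a target of NF-kB, Il12b the p40 subunit of interleukin 12, and Il15 a cytokine that sustains NK cells and memory CD8+ T cells.

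The promoters of Il12b and Cd274 are shown because Il12b had the largest KO minus WT difference of the 10 genes in DC and Cd274 the clearest stage profile among those above background in progenitors. Of the 10 genes, 5 were found in the RefSeq promoter table (build GRCm38.p6), giving 250 bases before to 50 bases after each start. Capitals mark matches on either strand to 3 short motifs: GGGAANTT, part of a kB element, TGAAAC, part of an element bound by interferon regulatory factors, and TATAAA, the TATA box. The Il12b window lies on chromosome 11 at chr11:44399813-44400112, plus strand, and the Cd274 window on chromosome 19 at chr19:29367188-29367487, plus strand.
Il12b: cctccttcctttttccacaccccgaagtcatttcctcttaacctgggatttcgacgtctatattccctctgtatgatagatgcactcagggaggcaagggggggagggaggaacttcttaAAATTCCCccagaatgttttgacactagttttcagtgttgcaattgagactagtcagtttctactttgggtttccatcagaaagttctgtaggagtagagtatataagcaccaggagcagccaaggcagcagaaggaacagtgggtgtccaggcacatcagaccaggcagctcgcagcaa
Cd274: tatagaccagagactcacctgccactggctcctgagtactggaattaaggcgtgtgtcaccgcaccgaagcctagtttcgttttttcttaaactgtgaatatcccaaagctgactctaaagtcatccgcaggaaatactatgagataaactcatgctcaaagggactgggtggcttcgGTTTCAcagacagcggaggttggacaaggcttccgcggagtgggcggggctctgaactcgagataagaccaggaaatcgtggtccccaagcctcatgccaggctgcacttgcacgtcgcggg
The Il12b window held 1 match, to GGGAANTT on the minus strand, with its leftmost base at position -130 from the start site, and 4.24% of 32851 promoter windows hold such a match. The Cd274 window held 1 match, to TGAAAC on the minus strand, with its leftmost base at position -72, against 12.1% of all windows. The motif letters were chosen with these sequences in view, no match overlapped another in these 2 windows, and a match describes letters and not a bound site.

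The array median, which was 7.64 and 7.61 (log2 intensity) for KO and WT DC and 7.63 to 7.77 in the progenitors, served as the line between signal and background, since the table holds no detection calls. The upper quartile of intensity was 604.76 and 641.43 on the KO and WT DC arrays, against 967.58 to 1009.3 on the progenitor arrays. Zbtb46 was 8.02 in KO DC, against 9.67 in WT DC, and 7.51 to 7.71 on the KO progenitor arrays, against 7.52 to 8.87 on the WT ones. All 15 listed CD4+ DC markers were at or above the median on both DC arrays (summed intensity 101039 in KO DC and 101398 in WT DC). Cd8a was below it (7.35 in KO DC and 7.14 in WT DC), but 2 and 5 of the 8 CD8+ DC markers reached it in KO and WT DC. So did all 6 plasmacytoid DC markers on both DC arrays, and 10 and 11 of the 11 monocyte and macrophage markers in KO and WT DC. The erythroid factors Gata1 and Klf1 were at or above the median on all 9 progenitor arrays and on neither DC array. Of the 6 erythroid markers, 2 in KO DC and 3 in WT DC reached it.

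In CD4+ DC, 9 of the 10 genes were far above their progenitor level. Cd83, Ccr7, Cd86, Traf1, Cd80, Cd274, Fscn1, Cd40 and Il12b had a higher log2 intensity on each of the 2 DC arrays than on any of the 9 progenitor arrays. Il15 was the exception, with both DC arrays below the array median and below every Pre MegE array. The plot of levels by array shows the 10 profiles.

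**Figure D1:**
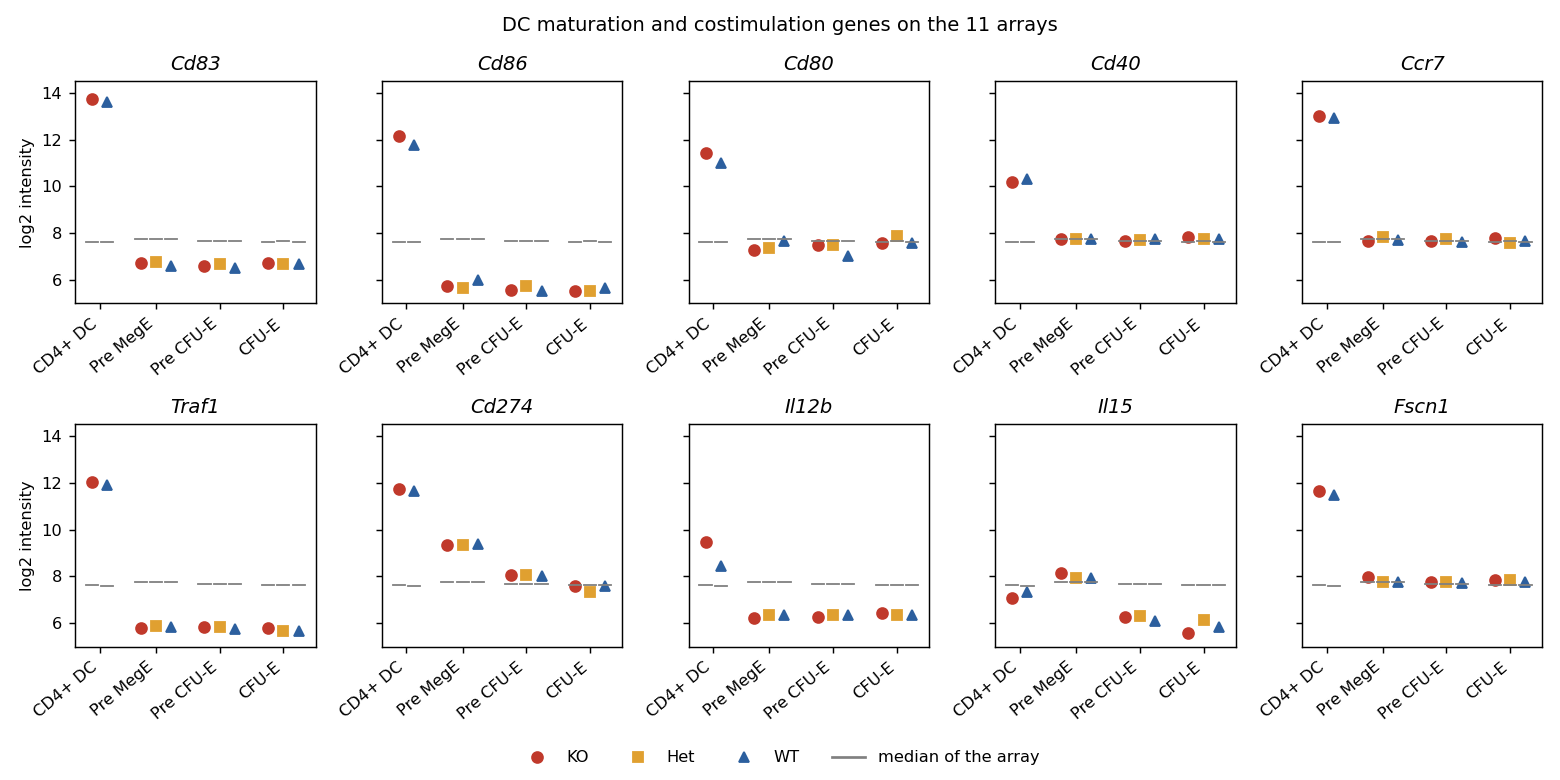
Log2 intensity (vertical axis) of the 10 genes on each of the 11 arrays, by cell type (horizontal axis), with KO as circles, Het as squares and WT as triangles, 1 array per point, and grey bars at each array's median. In 9 panels the KO and WT DC points lie above all progenitor points, for Cd83 at 13.71 and 13.59 against 6.50 to 6.75, and in the Il15 panel they lie below the Pre MegE points.

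Among the costimulatory ligands and surface receptors, Cd83 read 13.71 in KO DC and 13.59 in WT DC, against a progenitor range of 6.50 to 6.75 with a median of 6.67. Its DC minus progenitor difference was 7.01 (log2, SE 0.0517, limma adjusted p = 2.62e-14, 2 against 9 arrays). Cd86 was 12.16 in KO DC and 11.76 in WT DC, against 5.52 to 6.02 in progenitors, a difference of 6.27 (SE 0.119, adjusted p = 5.66e-12). Neither gene reached the array median on a progenitor array, so their progenitor readings lie in the background range and limit the fold sizes.

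Cd80 was 11.44 in KO DC and 11.01 in WT DC, against 7.02 to 7.87 in progenitors (difference 3.79, SE 0.153, adjusted p = 1.16e-09). Its other probe set read higher in DC (11.92 in KO and 11.62 in WT) and lower in progenitors, 5.56 to 5.73. It gave a difference of 6.15, so the direction was shared and the size depended on the probe set. Cd40 was 10.20 in KO DC and 10.33 in WT DC, against 7.67 to 7.83 in progenitors (difference 2.52, SE 0.0562, adjusted p = 1.67e-11). Cd274 was 11.71 in KO DC and 11.64 in WT DC, against 7.35 to 9.39 in progenitors (difference 3.35, SE 0.0652, adjusted p = 6.34e-12), and it had the widest progenitor range of the 9 genes that were high in DC.

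For migration and shape, Ccr7 was 13.02 in KO DC and 12.90 in WT DC, against 7.60 to 7.84 in progenitors (difference 5.26, SE 0.0686, adjusted p = 7.96e-13). Fscn1 was 11.65 in KO DC and 11.49 in WT DC, against 7.72 to 7.96 (difference 3.76, SE 0.0567, adjusted p = 1.46e-12). The progenitor values of both genes straddled the array median, at or above it on 5 and 8 of 9 arrays. Of the signalling and cytokine genes, Traf1 was 12.01 in KO DC and 11.89 in WT DC, against 5.69 to 5.90 in progenitors (difference 6.17, SE 0.0554, adjusted p = 9.5e-14).

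Il12b was 9.49 in KO DC and 8.45 in WT DC, against 6.22 to 6.45 in progenitors, all of them below the array median (difference 2.65, SE 0.177, adjusted p = 7.33e-08). Il15 was 7.06 in KO DC and 7.34 in WT DC, against 5.57 to 8.16 in progenitors. Against the mean of the 3 stages Il15 was higher in DC by 0.56 (SE 0.128, adjusted p = 0.00158), a call lost without the WT DC array (0.40, adjusted p = 0.0505). The mean hides opposite gaps: Pre MegE arrays averaged 8.005 ± 0.132 (SD, n = 3), above both DC arrays, and Pre CFU-E and CFU-E arrays averaged 6.21 ± 0.11 and 5.85 ± 0.28, below them.

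In this fit 89.9% of 11560 genes differed with 25.3% higher and 64.6% lower in DC. All 10 genes were called higher, 5 of which (Cd83, Cd86, Cd80, Traf1 and Il12b) passed the filter on low values only through the DC arrays and so had to be higher. With no filter all 10 were called too, against 33.5% of 19933 genes. The median difference of all genes was -0.59, and -0.10 after quantile normalization. The share of higher calls among all calls was 28.2%, and 45.9% after quantile normalization, and under both scalings the 10 differences were positive.

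Genes of the CD40 and NF-kB pathway, which carries CD40 signals to the nucleus, were mostly higher in DC. Of 24 listed genes 21 were tested, 16 were higher and 4 lower, with a median difference of 1.34. The NF-kB subunits Rel (3.76) and Relb (2.93), the inhibitor Nfkbie (3.14) and the cofactor Bcl3 (2.75) had the largest differences. Among 33 tested genes of a wider maturation list 24 were higher and 8 lower (median 1.26), led by Il1b, the interleukin 1 beta gene (6.94), the adhesion protein gene Adam23 (6.41), Ptgs2, which encodes cyclooxygenase 2 (6.39), and Apol7c (5.29). Other costimulatory and coinhibitory ligands divided, with 9 of 15 higher and 5 lower, among them the ICOS ligand Icosl (4.67) and the 4-1BB ligand Tnfsf9 (3.30) on the high side and Cd24a (-3.87) and the galectin gene Lgals9 (-3.75) on the low side. In the list of cytokine subunit partners and CCR7 ligands, Ebi3 was higher (1.72) and Il12a, whose product forms interleukin 12 with that of Il12b, was lower in DC (-0.87), out of 4 tested. Of 4 tested receptors for the products of these genes, 2 were higher, Il12rb2 most (2.91), and 2 lower, Pdcd1 most (-1.76). Il1b, Adam23, Apol7c, Icosl and Tnfsf9 reached the array median on the DC arrays only. The list counts include such genes, which passed the filter through the DC arrays alone and so had to be higher.

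KO and WT DC were compared array against array, with no replicate and hence no test of the difference. Il12b was 1.03 log2 (2.04-fold) higher in KO DC and was the only gene of the 10 past 1.5-fold. Cd80 (0.43) and Cd86 (0.41) came next, both higher in KO DC by less than 1.5-fold. Fscn1 (0.16), Cd83 (0.12), Traf1 (0.12), Ccr7 (0.11) and Cd274 (0.07) were higher by small amounts, and Cd40 (-0.13) was lower. Il15 (-0.28) was below the array median on both arrays and was not counted.

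**Figure D2:**
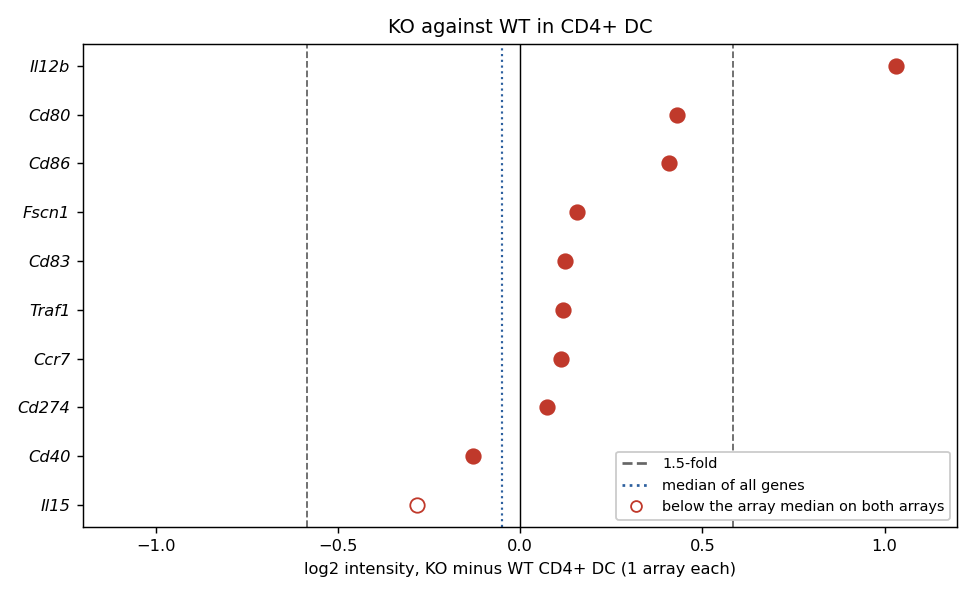
KO minus WT difference in log2 intensity (horizontal axis) for the 10 genes in CD4+ DC, 1 array per genotype, with dashed lines at 1.5-fold and a dotted line at the median of all genes (-0.05). Il12b at 1.03 lies past 1.5-fold, Cd80 and Cd86 at 0.43 and 0.41 lie short of it, and the open point is Il15, below the median of both arrays.

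Against the background of 10554 genes, 0.758% were at least 1.5-fold higher and 1.77% at least 1.5-fold lower in KO DC, and 38.8% had a difference above 0. Of the 9 genes compared, 8 had a difference above 0, with a median of 0.12 against -0.05 for all genes. A difference as high as that of Il12b or higher was reached by 10 genes (0.0948%), and one as high as that of Cd86 or higher by 250 (2.37%). Without replicates these shares describe the 2 arrays and not the genotypes. After quantile normalization the Il12b difference was 1.30, and the other 8 moved by less than the median residual SD of the progenitor fit (0.0705). The median of all genes was -0.002 after quantile normalization and -0.077 after centring each array on its median. Of the genes past 1.5-fold 30% were higher, 38.9% after quantile normalization and 25.7% after centring. The background thus depends on the scaling.

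For scale, the same KO minus WT difference was taken at each of the 3 progenitor stages, given here from the earliest to the latest. For Cd80 it was -0.41, 0.48 and 0.02, near or below the array median. The 0.43 in DC lay within their span, but that probe set reached the array median on only 1 of 9 progenitor arrays, a Het one. The other Cd80 probe set was 0.29 higher in KO DC, and its progenitor readings of 5.56 to 5.73 were at background level. For Il12b and Cd86 the DC difference lay above all 3 stage differences, which for Cd86 were -0.26, 0.03 and -0.14. For Il15 the stage differences were 0.23, 0.17 and -0.27, and the -0.28 in DC lay just below them. The differences of Cd83 (0.12, 0.10 and 0.08) were close to its 0.12 in DC. Il12b, Cd86 and Cd83 were below the array median on all 9 progenitor arrays. Their stage differences, like those of Cd80, are between background readings and give little scale for the DC pair.

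The gap of each gene to the progenitors of the same genotype restates the same DC pair, less the KO minus WT difference of the progenitor means. It is no second reading of that pair. The gap of Il12b was 3.17 log2 in KO mice and 2.12 in WT mice, and that of Cd86 was 6.54 in KO and 6.01 in WT. Cd80 had 3.99 in KO and 3.59 in WT. The gaps of Cd83 (7.020 in KO and 6.996 in WT), Traf1 (6.20 and 6.13 in KO and WT), Ccr7 (5.29 and 5.24), Fscn1 (3.79 and 3.73) and Cd274 (3.39 and 3.31) nearly coincided. Cd40 (2.45 in KO and 2.58 in WT) and Il15 (0.40 in KO and 0.73 in WT) had the smaller gap in KO mice.

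The other genes of the pathway showed small differences in KO DC. In the CD40 and NF-kB list 18 of 21 genes had a difference above 0 (median 0.10) and none was past 1.5-fold, with Nfkbie at 0.42 and Bcl3 at 0.34 the largest. In the wider maturation list 22 of 32 were above 0 (median 0.09), and Cd1d1, which presents lipid antigens, was the only one past 1.5-fold (-0.59). Of all genes 38.8% were above 0 (median -0.05, and -0.002 after quantile normalization). Other costimulatory and coinhibitory ligands had 3 of 13 above 0, with a median of -0.09, near that of all genes. Of these ligands Cd24a (-0.82) and Lgals9 (-0.70) were past 1.5-fold. Of the cytokine partners and CCR7 ligands 3 genes were compared, with a median of 0.47. Il27 (0.51) and Ccl19 (0.47) had the largest differences, and Ebi3 differed by 0.005. Il27 and Ccl19 had readings near the array median. Ccl19 was 7.91 in KO DC and 7.44 in WT DC, the latter below its array median, and Il27 was 8.37 and 7.86. Of the receptors 3 were compared (median -0.22) and none was past 1.5-fold. The plot of pathway lists shows each gene.

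**Figure D3:**
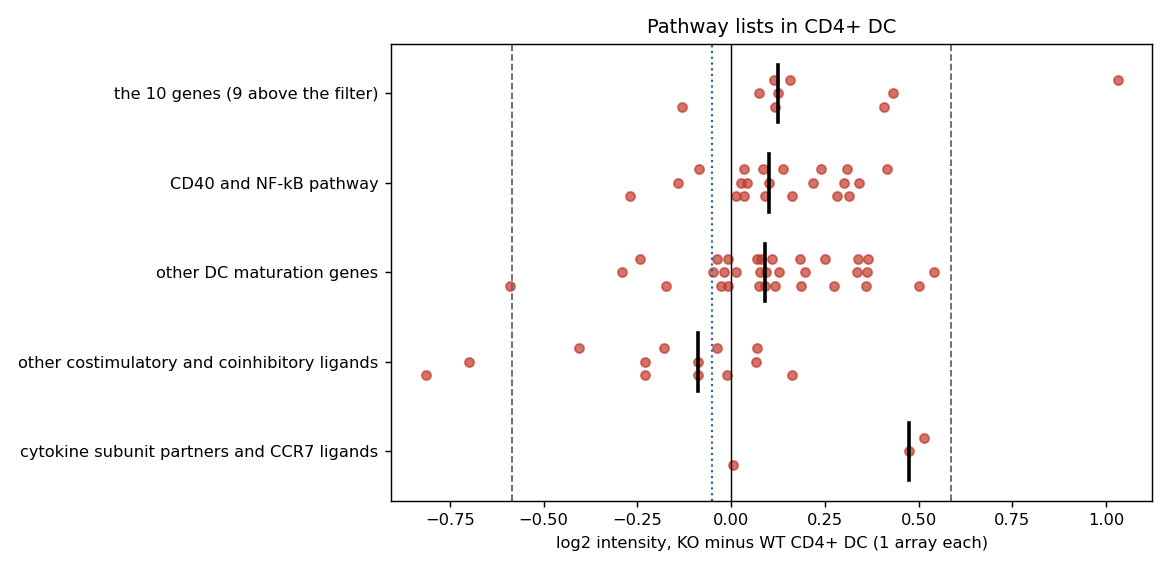
KO minus WT difference in log2 intensity in CD4+ DC (horizontal axis) for the genes described and 4 related lists (rows), 1 point per gene that reached the array median on either array, with a black bar at the list median, dashed lines at 1.5-fold and a dotted line at the median of all genes. The medians of the 9 genes and of the NF-kB and maturation lists lie at 0.12, 0.10 and 0.09, and that of the other ligands at -0.09.

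Markers of other cells were read beside the Il12b difference. Csf3r, the G-CSF receptor, was 11.24 in KO DC and 9.55 in WT DC, Ms4a1, which encodes the B cell protein CD20, was 9.55 and 8.57 in KO and WT DC, and Cd14 was 10.65 and 9.76. The 11 neutrophil markers summed to an intensity of 3868 in KO DC and 2344 in WT DC, of which 2 and 3 were at or above the median. Without Csf3r the other 10 summed to 1445 in KO DC and 1597 in WT DC. Of the 11 markers 6 were higher and 5 lower in KO DC. Besides Csf3r the higher ones included Ngp (0.305) and Retnlg (0.217), and the lower ones S100a8 (-0.58), S100a9 (-0.58) and Cxcr2 (-0.77). Apart from Csf3r, only S100a9 of these named genes reached the array median on a DC array. The granule genes Ngp, Camp, Ltf, Elane and Mpo were below it on both DC arrays. The 7 B cell markers summed to 3123 in KO DC and 3056 in WT DC, with 3 and 4 at or above the median. Of these 7, 3 were higher and 4 lower in KO DC, the lower ones being Cd79a (-0.69), Blk (-0.52), Fcrla (-0.26) and Ighm (-0.23). The 11 monocyte and macrophage markers summed to 21928 in KO DC and 22870 in WT DC, with 4 higher and 7 lower in KO DC. The 8 CD8+ DC markers summed to 2932 in KO DC and 3491 in WT DC, the 6 plasmacytoid DC markers to 2898 and 3104 in KO and WT DC, the 6 T cell markers to 1816 and 1834, the 7 NK cell markers to 722 and 694, and the 6 erythroid markers to 1763 and 1685. The part of other cells in the Il12b difference was not tested, and in bulk RNA fewer cells of a type and less RNA per cell cannot be told apart.

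A fit over all 11 arrays set the KO effect in DC against the KO effect in progenitors, which assumes that each unreplicated DC array has the spread of a progenitor array. Its SE comes from the progenitor arrays alone, so its p-values hold no replicate of the DC difference. It shares the DC pair with the comparison above. Cd83, Cd86, Traf1 and Il12b were below the array median on all 9 progenitor arrays. For them the SE rests on background readings, and the p-values do not test the DC difference. Il12b was called, with a KO effect 1.06 larger in DC (SE 0.114, limma adjusted p = 0.00275), while 4.57% of 11560 genes were called in all, 1.56% with a higher and 3.01% with a lower effect in DC. Cd86 was not called (0.53, SE 0.173, adjusted p = 0.132), but passed without the Het Pre CFU-E array (0.53, adjusted p = 0.0497). The other 8 genes were not called, with adjusted p from 0.483 to 0.914. In the related lists, Il27 (0.53), Ccl19 (0.43), Nfkbie (0.62), Tank (0.38) and the chemokine gene Ccl5 (0.58) passed with a higher effect in DC, and Cd24a (-0.68) and Lgals9 (-0.67) with a lower one. The share of higher effects among all calls was 34.1%, and 45.2% after quantile normalization.

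Of the 5 genes tested in the progenitors, Cd274 and Il15 were called between stages. Cd274 was 9.33, 9.35 and 9.39 at Pre MegE in KO, Het and WT, 8.05, 8.05 and 8.01 at Pre CFU-E, and 7.59, 7.35 and 7.57 at CFU-E. The stages did not overlap, and at CFU-E each array lay below its median. Cd274 fell by 1.32 from Pre MegE to Pre CFU-E (SE 0.0624, 2.5-fold, adjusted p = 2.07e-07, lower in 3 of 3 genotypes) and by a further 0.53 to CFU-E (SE 0.0624, adjusted p = 0.000127).

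Il15 was 8.16, 7.93 and 7.92 at Pre MegE in KO, Het and WT, 6.26, 6.29 and 6.08 at Pre CFU-E, and 5.57, 6.14 and 5.84 at CFU-E. All 3 Pre MegE arrays were above the array median and all 6 later ones below it. Il15 fell by 1.79 at the earlier step (SE 0.121, 3.47-fold, adjusted p = 1.69e-06). The later step, a fall of 0.36 between readings near background, had an adjusted p of 0.036 that was lost in 7 of 13 alternatives (up to 0.12), and Pre CFU-E and CFU-E values overlapped. Without the KO CFU-E array it was -0.17 (adjusted p = 0.086), and the call was also lost without any 1 of WT Pre CFU-E (0.0763), WT CFU-E (0.0595), Het Pre CFU-E (0.0621) and KO Pre CFU-E (0.12), with adjusted p in brackets.

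**Figure D4:**
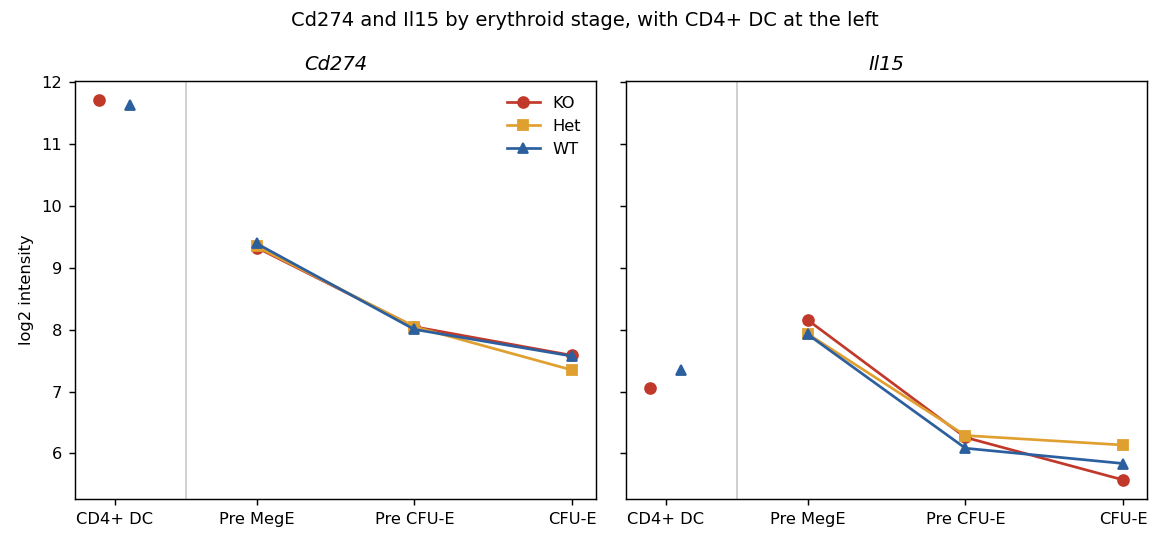
Log2 intensity (vertical axis) of Cd274 and Il15 at the 3 erythroid stages (horizontal axis), with a line per genotype (KO circles, Het squares, WT triangles, 1 array per point), and in CD4+ DC at the left. Both genes fall from Pre MegE to Pre CFU-E in all 3 genotypes, by -1.32 for Cd274 and -1.79 for Il15 on average, and only Cd274 is higher in DC than at Pre MegE.

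Of the 10 genes 5 passed the filter in progenitors (Cd40, Ccr7, Cd274, Il15 and Fscn1), and the 2 that fell at the earlier step stand against 29.3% of 10701 genes that fell there, 37.1% that rose and 66.3% that changed. At the later step 25.3% fell, 18.7% rose and 44% changed, and over the whole span 35.1% fell, 41.5% rose and 76.6% changed. Cd40, Ccr7 and Fscn1 lay within 0.17, 0.24 and 0.24 log2 over all 9 arrays, near the array median. Cd40 was not called between CFU-E and Pre MegE (0.03, adjusted p = 0.557), but was after centring each array on its median (0.15, adjusted p = 0.0144) and after quantile normalization (0.15, adjusted p = 0.0139). The remaining 5 genes did not pass, and 4 of them were below the median on every progenitor array. With no filter, 1 of those 5 was called, Cd86 over the span (-0.24, limma adjusted p = 0.0494), between readings in the background range. The share of rises among all calls from Pre MegE to Pre CFU-E was 55.9%, and 66.7% after centring, and over the span 54.2% and 64.9%.

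Other genes of the pathway also fell along the stages. In the CD40 and NF-kB list 11 of 20 genes fell and 3 rose from Pre MegE to Pre CFU-E (median -0.20, against 0.04 for all genes), led by Rel (-1.61) and the inhibitor-like factor Nfkbiz (-0.94). In the maturation list 20 of 26 fell and 2 rose (median -0.39), led by Stat4 (-3.06), Ccl17 (-1.59) and Ptgs2 (-1.52). Among other ligands 7 of 9 fell and 2 rose, and both called cytokine subunits fell, Ebi3 by 1.84 and Il12a by 1.17. Pdcd1, which encodes the PD-1 receptor of the Cd274 product, fell at this step (-0.65) and over the span (-3.17).

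All 11 neutrophil markers fell from Pre MegE to Pre CFU-E (median -0.93). Their summed intensity was 36395 to 42650 at Pre MegE, 20246 to 24948 at Pre CFU-E and 17324 to 21772 at CFU-E. The 11 monocyte and macrophage markers summed to 1839 to 2037, 1631 to 1716 and 1592 to 1749 at the same stages, with at most 2 at or above the median. Their part in the falls of Cd274 and Il15 was not tested.

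Genotype made no called difference to these genes in progenitors. Between KO and WT the differences of the 5 genes tested ran from -0.004 for Cd274 to 0.10 for Fscn1, with limma adjusted p of 0.941 to 1, and 0 of 5 were called or had an unadjusted p under 0.05, against 0.14% of 10701 genes called (0.0187% higher and 0.121% lower). Between Het and WT they ran from -0.08 for Cd274 to 0.17 for Il15, and again 0 of 5 were called or had an unadjusted p under 0.05, against 0.0374% of genes called (0.00934% higher and 0.028% lower). None of the related pathway lists had a called gene in either comparison, and at an unadjusted p under 0.05 KO and WT differed in 6 of 20 NF-kB genes, 3 of 26 maturation genes, 1 of 9 other ligands, 1 of 4 cytokine partners and 0 of 4 receptors, against 614 of all 10701 genes. Il12b, below background there, was -0.12, -0.07 and 0.12 (KO minus WT) along the 3 stages. Among the neutrophil markers Elane was lower in KO than in WT progenitors (-0.44, limma adjusted p = 0.0136). It was also lower in Het than in WT (-0.42, limma adjusted p = 0.0366). Between KO and WT 10 of the 11 had an unadjusted p under 0.05, against the same 614 of 10701 genes. Between Het and WT 4 of the 11 had one, against 566 genes.

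The genes closest in pattern, by Pearson correlation of the 11 log2 values over 11559 other genes, were for Ccr7 Traf1 (r = 0.9997), Cd83 (0.9996) and Bmf (0.9996). Fscn1 was closest to Tlr1 (0.9997), and Cd86 to Tlr7 (0.9995). Il12b, with its higher KO DC reading, was closest to Pxdc1 (0.9982), Flrt3 (0.998) and the cytokine receptor gene Lifr (0.9973), and Il15 to Zfp608 (0.9881). These values rest mostly on the gap between 2 DC and 9 progenitor arrays, which every such gene shares, and are given as a description.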

How the data were processed

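RNA of sorted mouse cells was measured on 11 single-colour Affymetrix arrays, with biotin-labelled total RNA prepared, per the labels' protocols, with an Ambion/Affymetrix kit. The deposited table holds intensities on a linear scale (judged from the values), and the submitters' processing notes name RMA as the tool. Its version and whether DC and progenitor arrays were normalized together are not stated. The log2 of each deposited intensity was taken, with no further scaling. Of 29674 probe sets 21780 had 1 gene symbol in the platform annotation (1618 several, 6276 none), and each gene used the probe set with the highest mean log2. The number of arrays limits the precision.

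Genes that reached the array median on 2 or more arrays of a fit were tested with limma 3.58.1 in R 4.3.3 (two-sided, Benjamini-Hochberg over all genes tested, called at adjusted p under 0.05). Progenitor stages and genotypes shared 1 additive fit of 9 arrays (4 residual degrees of freedom). DC were set against the mean of the 3 stages over 11 arrays with genotype as a term (5 residual degrees of freedom), and the KO effect in DC against that in progenitors in a fit with 4. KO and WT DC were compared as the KO value minus the WT value, for genes that reached the array median on either array. Fits were tested on data simulated with the same spread for all genes and arrays, with effects only in genes whose mean was well above the array medians. That test does not cover the spread of DC arrays or genes such as Il12b with background readings in progenitors. The 10 genes, the related lists (181 genes, 166 with a probe set of 1 symbol) and the tests were chosen with earlier results of these data known. In each list up to 4 called genes (in the DC pair, past 1.5-fold) with the largest differences were named, otherwise at most 2, and Zbtb46 as the targeted gene. Genes outside this rule (Cd8a, Gata1, Klf1, Pdcd1 and several B cell and neutrophil markers) were named after their values were seen. Alternatives changed the filter, the scaling, the probe set and the arrays left out. The other Cd80 probe set was added after seeing the data.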

Additional observations from a re-analysis of the deposited data

Results flagged for a closer look

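Il12b is listed because its KO effect was called different between cell types in the fit over all 11 arrays. The KO minus WT difference was 1.03 in CD4+ DC, against -0.12, -0.07 and 0.12 along the 3 progenitor stages, earliest first. The difference between the 2 effects was 1.06 (SE 0.114, limma adjusted p = 0.00275, from progenitor arrays alone), and 1.01 to 1.34 over 13 alternatives (adjusted p 0.000322 to 0.0175). Each DC array is fitted exactly, so the SE holds no spread between DC arrays and the p adds no replicate of the single DC pair. Il12b was below the array median on all 9 progenitor arrays and entered the fit through the DC arrays. This limits what an effect in progenitors could show. The SE of Il12b rests on background readings, and the p does not test the DC difference. All 13 alternatives use the same DC pair.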

How the results depend on the processing

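Of 673 recomputed values of single genes 660 kept their side of the threshold or, with no test, moved by less than the residual SD. Of these, 383 were uncalled both ways, and 40 of the 383 were of another sign. A further 8 values lost a call, 3 gained one and 2 moved by more, and no called value turned its direction. Counts of the 10 genes called moved mainly where fewer were tested: with the array median reached on 4 or more arrays, 1 was called at each stage step and over the span, 4 in DC against progenitors and 0 for the KO effect in DC minus that in progenitors, since Il12b was no longer tested. From Pre CFU-E to CFU-E 1 was called with no filter (Il15 at an adjusted p of 0.0693) and 1 with centred arrays (0.0545), and 1 to 2 with each array left out. For DC against progenitors 5 to 10 were called with each array left out, lowest without a DC array, which removes genes from the test. Leaving out arrays gave 1 to 2 for the KO effect. Over all genes, calls between KO and WT progenitors were 7 with no filter and 1 to 26 with each array left out, and between Het and WT 1 with no filter, 2 with the stricter filter and 1 to 5 with each array left out. The KO effect in DC minus that in progenitors had 1135 calls after quantile normalization and 201 to 823 with each array left out. In the DC pair 468 genes were past 1.5-fold after quantile normalization and 33 past 2-fold, with 1 of the 10, Il12b, in both. The other Cd80 probe set gave a KO minus WT difference of 0.29 in DC. Array weights were not used, since their estimation did not converge in any of the 3 fits. No paired analysis was possible because each group has 1 array and the labels carry no replicate numbers. Progenitor readings of Cd83, Cd86, Traf1 and Il12b lie below the array median, which limits what a genotype difference there could show.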

Other observations

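Irf1, an interferon-induced factor in the maturation list, is given after its values were seen. It was 8.55, 8.64 and 9.65 in KO, Het and WT CFU-E cells and 9.48, 9.73 and 10.27 in KO, Het and WT Pre CFU-E cells, highest in WT at both stages. At Pre MegE it was 10.625, 10.567 and 10.783 in KO, Het and WT. Averaged over stages its KO minus WT difference in progenitors was -0.69 and was not called (limma adjusted p = 0.239). Cd274, also an interferon-inducible gene, was 7.59, 7.35 and 7.57 in the same KO, Het and WT CFU-E cells. In DC, Irf1 was 11.15 in KO and 11.16 in WT.

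The complement genes C1qc (-0.80) and C1qb (-0.78) and the Fc receptor gene Fcgr1 (-0.78) were more than 1.5-fold lower in KO DC, while Cd14 (0.89), from the same monocyte and macrophage list, was higher. In all 5 genes of that list of 11 were past 1.5-fold in the DC pair, 1 higher and 4 lower, Vcam1 (-0.62) being the other lower one.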
